A study of Mus musculus with 12 samples.

Results

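The nuclear genes of the mitochondrial respiratory chain were described across 12 RNA-seq libraries of transferred T cells recovered from the central nervous system. The genes were taken by symbol: rows that begin with Nduf followed by a, b, c, s or v, the 4 Sdh genes, Uqcr, Cox4 to Cox8 and Atp5. Rows marked as pseudogenes by "-ps" in the symbol, 13 in all, were left out. This gave 101 of the 47359 gene rows: 52 of complex I, 8 of them assembly factors, 4 of complex II, 8 of complex III, 19 of complex IV and 18 of complex V.

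By the submitters' account, TH17 cells carrying the 2D2 T cell receptor, which recognises a myelin antigen, had been transferred into RAG2-/- mice. Such mice do not develop lymphocytes of their own. The transferred cells were sorted by CXCR6 or SLAMF6 at the height of experimental autoimmune encephalomyelitis. The groups were 2D2-WT CXCR6+ cells (n = 5), 2D2-WT SLAMF6+ cells (n = 5), and 1 library each of CXCR6+ and SLAMF6+ cells of genotype 2D2-IL-17A/F-DKO, which lack IL-17A and IL-17F and are called DKO here. Each library was made from 1000 living cells. The age and sex of the mice were not given. The labels number the WT libraries m1 to m5 in each subset without saying what a number marks. The p-values therefore measure the spread between these libraries, which may be technical.

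The chain consists of complexes in the inner mitochondrial membrane. Complex I takes electrons from NADH and complex II takes them from succinate; complex III passes them to cytochrome c and complex IV to oxygen. Complexes I, III and IV pump protons as they do so, and complex V, the ATP synthase, lets the protons return and makes ATP. Nuclear genes encode most subunits, and the mitochondrial genome encodes the remaining ones of every complex except II. T cells use the chain beside glycolysis, in a balance that changes with activation and differentiation.

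Total counts ran from 6818658 to 8710148 (WT CXCR6+) and from 8134987 to 11635037 (WT SLAMF6+), and the DKO libraries held 8552216 (CXCR6+) and 8285134 (SLAMF6+). Il17a was at 191 to 465 CPM (the count rate relative to the TMM-scaled library size) in the WT libraries and at 0 and 3 counts in the DKO libraries, and Il17f had 1 count in each DKO library. The 2 DKO libraries stood apart in other ways: Trbv16, the V segment of the 2D2 receptor, made up 99.6 to 99.8% of Trbv counts in WT but 9.96% and 6.51% in DKO. Most Trbv counts of the DKO libraries were thus of V segments other than that of the 2D2 receptor named by their label. Xist was at 0 in the DKO libraries with 447 to 1846 counts in WT. The Y-linked Ddx3y had 314 and 249 counts in DKO and none in WT. Haemoglobin genes took 11.9% of counts in the DKO SLAMF6+ library. The neutrophil markers summed to 926 CPM (DKO CXCR6+) and 82.1 CPM (DKO SLAMF6+) against 0 to 1.65 CPM over the WT libraries, where S100a8, S100a9 and Retnlg were at 0. The 9 T cell markers were all detected in each group, and their summed level was 20249 to 35340 CPM in WT and 6758 and 7521 CPM in DKO. The sum does not describe each marker. Cd3e, a member of that list, went the other way, at 140.7 to 241.7 CPM in WT and 578.3 and 544.5 CPM in DKO. Genotype therefore cannot be told apart from these other differences of the DKO libraries, each of which was 1 library. Of the sorting genes, Slamf6 was lower in every WT CXCR6+ library (1.69 to 5.02 CPM) than in any WT SLAMF6+ library (5.90 to 10.98 CPM). Cxcr6 overlapped between the WT subsets, at 4.34 to 42.9 and 11.4 to 19.2 CPM. In DKO CXCR6+ and DKO SLAMF6+, Cxcr6 was at 382 and 162 CPM and Slamf6 at 75.8 and 259 CPM, above every WT library.

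The promoters of 5 genes are shown because these genes mark the ends of the patterns described below: Atp5e and Sdhd for large differences between the WT subsets, Cox6a1 for one that did not pass the test, Cox7a1 for its near absence from both DKO libraries, and Cox6b2, which had 0 counts in one of them. Each is the 250 bases before the RefSeq start (GRCm38.p6), written 5' to 3' on the gene's strand. The capitals mark matches on either strand to the motifs of NRF1 (GCANGCGC), GABPA (CCGGAAG), YY1 (AAGATGGC) or SP1 (GGGCGG), transcription factors known for their sites in such promoters. In Cox6a1 a pair of NRF1 matches on opposite strands overlap in a single capital run.
Atp5e, chr2:174464102-174464351, minus strand: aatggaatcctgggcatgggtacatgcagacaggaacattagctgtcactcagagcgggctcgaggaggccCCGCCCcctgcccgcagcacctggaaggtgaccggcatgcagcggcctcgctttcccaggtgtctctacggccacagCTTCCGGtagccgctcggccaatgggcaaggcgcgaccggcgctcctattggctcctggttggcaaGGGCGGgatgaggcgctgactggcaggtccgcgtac
Sdhd, chr9:50603850-50604099, minus strand: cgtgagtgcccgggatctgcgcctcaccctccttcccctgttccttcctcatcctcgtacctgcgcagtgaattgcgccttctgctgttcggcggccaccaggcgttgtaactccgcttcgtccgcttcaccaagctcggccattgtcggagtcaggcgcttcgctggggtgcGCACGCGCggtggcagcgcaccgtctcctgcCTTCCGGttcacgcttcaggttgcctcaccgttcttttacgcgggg
Cox6a1, chr5:115348959-115349208, minus strand: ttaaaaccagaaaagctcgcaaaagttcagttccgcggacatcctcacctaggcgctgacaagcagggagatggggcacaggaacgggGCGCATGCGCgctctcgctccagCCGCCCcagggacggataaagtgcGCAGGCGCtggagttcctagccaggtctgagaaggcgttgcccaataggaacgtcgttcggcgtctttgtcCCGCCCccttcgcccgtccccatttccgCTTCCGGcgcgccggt
Cox7a1, chr7:30183921-30184170, plus strand: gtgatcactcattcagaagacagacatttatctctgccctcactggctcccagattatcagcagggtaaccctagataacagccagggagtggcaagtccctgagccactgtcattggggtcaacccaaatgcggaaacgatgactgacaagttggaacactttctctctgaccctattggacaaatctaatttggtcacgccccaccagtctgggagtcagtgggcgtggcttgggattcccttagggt
Cox6b2, chr7:4753095-4753344, minus strand: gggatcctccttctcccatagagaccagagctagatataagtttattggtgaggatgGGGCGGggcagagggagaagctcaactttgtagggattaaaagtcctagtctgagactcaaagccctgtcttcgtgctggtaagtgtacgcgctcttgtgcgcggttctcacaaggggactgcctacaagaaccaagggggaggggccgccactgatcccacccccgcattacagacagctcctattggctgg

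Promoters on chromosome 18, where Ndufa2 and Atp5a1 lie, were left out. A RefSeq promoter was found for 78 of the 101 genes. Over the 300 bases from 250 before to 50 after the start, NRF1's motif was present in 27 of the 78 (34.6%). It was present in 9.87% of the 27025 promoters of that length compared, 1 per gene and also without chromosome 18. GABPA's was present in 18 (23.1%, against 9.12%). YY1's was present in 10 (12.8%, against 2.88%) and SP1's in 35 (44.9%, against 35.9%). None of these letters occurred in 18 (23.1%, against 56.6% of the promoters compared). By complex, NRF1's motif was in the promoters of all 3 complex II genes matched, 3 of 5 of complex III, 7 of 15 of complex V, 12 of 42 of complex I and 2 of 13 of complex IV. YY1's was in 8 promoters of complex I and 2 of complex V, and in none of those matched of the other complexes. In the WT comparison described next, the median log2 difference was -0.88 with and -0.90 without NRF1's letters, -1.002 and -0.88 for GABPA, -0.83 and -0.90 for YY1, and -0.88 and -0.91 for SP1.

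The chain was transcribed broadly but unevenly. Of the 101 genes, 95 passed the filter on low counts, and 88 averaged at least 10 CPM over the WT libraries. The 6 that did not pass were Ndufa4l2, Ndufb11b, Cox8b and a second Atp5o row, all with 0 counts, and Cox7b2 and Cox8c, with 12 counts or fewer in any library. Levels per kilobase of transcript, the scale on which genes can be compared, were highest for Atp5md (1666 CPM per kb over the WT libraries), a small membrane subunit of the ATP synthase, followed by Cox8a (1527), Cox6a1 (1309), Atp5e (1032) and Cox4i1 (994). The medians were 522 CPM per kb for complex III, 436 for IV, 366 for V, 131 for I and 67.8 for II. They took in the 8 assembly factors of complex I, at 2.83 to 66.1 CPM per kb. For complex IV they took in isoform genes near 0, among them Cox4i2 (3.48), Cox6a2 (0.73) and Cox8b (0). The medians of I and IV would be higher without these genes. The core subunits that carry the cofactors of complex I were not among the highest: Ndufs1, its largest iron-sulfur subunit, stood at 18.7 CPM per kb.

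Between the WT subsets, transcripts of all 5 complexes were lower in CXCR6+ than in SLAMF6+ cells. By the quasi-likelihood test of edgeR, adjusted by Benjamini and Hochberg over all 21565 genes tested, 85 of the 95 measured genes were lower at an adjusted p under 0.05 and 0 were higher. At an unadjusted p under 0.05 also 0 were higher, as by limma-voom and by DESeq2. Of all genes tested, 17.7% were lower and 15.6% higher. The median log2 difference of the 95 was -0.90, against 0.13 over all genes, and for 84 of the 95 the 5 CXCR6+ and 5 SLAMF6+ values did not overlap, as for 6000 of the 21565 genes (27.8%). By complex, 44 of 50 genes of complex I were lower (median -0.83), 4 of 4 of II (-0.90), 8 of 8 of III (-1.003), 13 of 16 of IV (-0.91) and 16 of 17 of V (-0.95).

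Summed over its genes, complex I stood at 4884, 4913, 5125, 5405 and 5266 CPM in the WT CXCR6+ libraries and at 9180, 9019, 9606, 10097 and 10011 CPM in the WT SLAMF6+ libraries, with no overlap. The sums (mean ± SD, n = 5) were 351 ± 19.8 and 640 ± 54.2 CPM for complex II, 1552 ± 85.6 and 3128 ± 207 for III, 4266 ± 210 and 7524 ± 375 for IV, and 4403 ± 150 and 8037 ± 449 for V. The 13 subunits encoded by the mitochondrial genome went the other way, with 60819 ± 7903 CPM in WT CXCR6+ and 17995 ± 4580 in WT SLAMF6+. As log2 ratios of the group means, the nuclear sums ran from -1.01 (III) to -0.82 (IV), and the mitochondrial sum was 1.76.

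**Figure D1:**
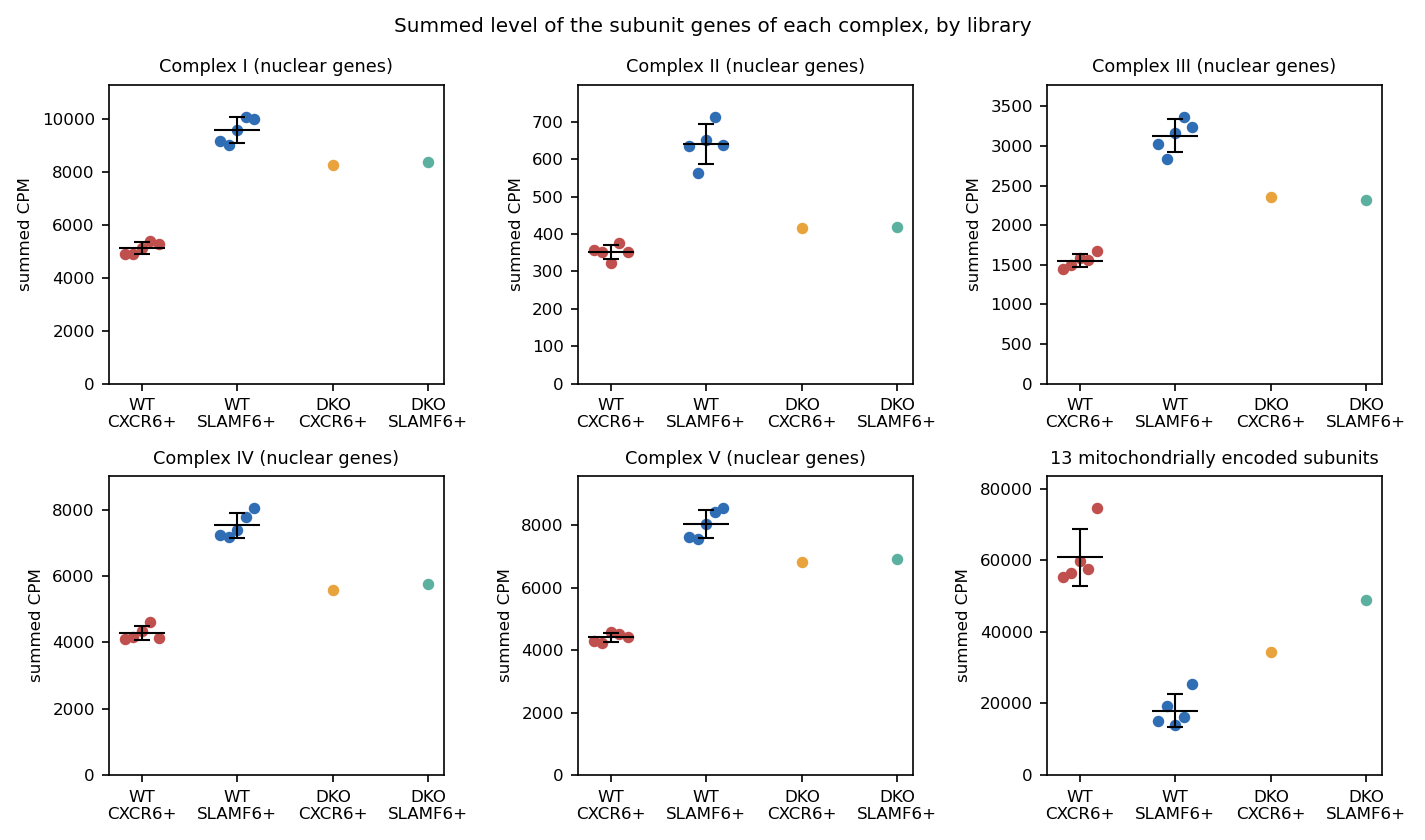
Summed CPM of the nuclear genes of each complex and of the 13 mitochondrially encoded subunits by library, on linear axes from 0, with 1 point per library in 4 groups (WT CXCR6+, WT SLAMF6+, DKO CXCR6+, DKO SLAMF6+) and the mean ± SD of the WT groups. For every complex the 5 WT CXCR6+ libraries lie below the 5 WT SLAMF6+ libraries and the DKO libraries lie between, while the mitochondrial subunits are reversed between the WT subsets.

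Within complex I, 6 of the 7 core subunits, which hold the flavin and iron-sulfur centres, were lower, with a median of -0.47. Of the 32 accessory subunits around them 31 were lower, with a median of -0.91; whether the 2 kinds differ was not tested. Ndufs1 was at 53.3, 45.8, 45.6, 49.2 and 46.1 CPM in WT CXCR6+ and 49.1, 45.5, 49.2, 53.7 and 54.6 CPM in WT SLAMF6+, and these values overlapped. Its log2 difference was -0.07 ± 0.07 (SE, adjusted p = 0.479). Its sign turned when only genes of at least 10 CPM were fitted or library totals were used, both of which change the scaling. Of the other core genes, Ndufv1, the NADH-binding subunit, was lower by a small amount (-0.26 ± 0.06). It turned positive under library totals and was near 0 when only genes of at least 10 CPM were fitted. Ndufs7 (-0.47 ± 0.05) and Ndufs3 (-0.58 ± 0.08) differed more, and Ndufs8 (-1.09 ± 0.08) and Ndufv2 (-1.17 ± 0.09) differed by more than 2-fold. The accessory subunit Ndufv3 showed the largest difference among the genes of the complex that passed, from 169, 181, 203, 185 and 237 CPM in WT CXCR6+ to 532, 491, 527, 525 and 578 CPM in WT SLAMF6+ (-1.44 ± 0.09, adjusted p = 1.21e-06). The smallest p of the complex belonged to Ndufa11, a membrane-arm subunit, at 111 ± 5.62 and 235 ± 7.80 CPM (SD, n = 5; -1.08 ± 0.05).

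The 8 assembly factors, which help to build complex I and are not part of it, had a median of -0.54, and 6 were lower. Ndufaf8 differed most (32.8 ± 5.95 and 70.5 ± 19.0 CPM; -1.11 ± 0.19). Ndufaf7, a methyltransferase, and Ndufaf4 did not pass the test (-0.40 ± 0.15, adjusted p = 0.06, and 0.22 ± 0.14, adjusted p = 0.263). Ndufaf7 passed when CXCR6+ replicate 1 was left out (-0.50, adjusted p = 0.0172), and Ndufaf4 was higher in CXCR6+ with library totals or among genes of at least 10 CPM. Ndufb4, Ndufb4b and Ndufb4c are near-identical copies among which reads may be divided, so only their sum can be read with some certainty: 94.8 ± 13.6 CPM in WT CXCR6+ and 212 ± 28.9 in WT SLAMF6+. Of the 4 rows annotated as pseudogenes despite their symbols, Ndufb4c was lower, and Ndufa11b, Ndufs6b and Cox6c2 did not pass. Cox6c2 was at 3.19 ± 3.57 and 5.26 ± 3.37 CPM, with overlapping values, and Ndufs6b had 0 counts in WT.

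Complex II, which links the chain to the tricarboxylic acid cycle, was lower in all 4 genes. The flavoprotein Sdha differed least (116 ± 10.2 and 181 ± 11.6 CPM; -0.64 ± 0.07), the iron-sulfur subunit Sdhb and the membrane anchor Sdhc by -0.85 ± 0.07 and -0.96 ± 0.11, and the other anchor, Sdhd, most. Sdhd was at 75.0, 63.2, 56.0, 62.8 and 59.2 CPM in WT CXCR6+ and 143, 126, 155, 162 and 136 CPM in WT SLAMF6+ (-1.19 ± 0.09, adjusted p = 4.46e-06). Among the 8 genes of complex III, the Rieske iron-sulfur protein Uqcrfs1 (-0.77 ± 0.09) and the core protein Uqcrc1 (-0.67 ± 0.07) differed least. Uqcrh, the hinge protein near the cytochrome c site, differed most. It stood at 274, 244, 243, 237 and 247 CPM in WT CXCR6+ and 567, 583, 608, 638 and 644 CPM in WT SLAMF6+ (-1.29 ± 0.06, adjusted p = 5.14e-07).

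In complex IV the nuclear subunits that surround the catalytic core were mostly lower by close to 2-fold. Cox4i1 was at 520 ± 22.7 and 981 ± 51.7 CPM (-0.92 ± 0.06), and Cox8a was at 585 ± 28.4 and 1095 ± 45.0 CPM (-0.91 ± 0.05). Cox5a and Cox5b differed by -0.97 ± 0.06 and -0.85 ± 0.06. Cox6a1 stood at 728, 717, 673, 838 and 652 CPM in WT CXCR6+ and 773, 670, 772, 826 and 827 CPM in WT SLAMF6+, and the 2 sets overlapped. Its log2 difference was -0.10 ± 0.08 (adjusted p = 0.369). It was positive in fits that scaled the libraries otherwise: under library totals, among genes of at least 10 CPM and among short genes only. Cox7a2l, known for its part in joining complexes III and IV into supercomplexes, differed most in the complex after the isoform genes Cox6a2, Cox4i2 and Cox7a1 described below (140 ± 15.1 and 353 ± 37.0 CPM; -1.33 ± 0.09).

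In complex V, all 5 genes of the F1 head, where ATP is made, were lower (median -0.93), as were 11 of 12 others (-0.97). Atp5b, the catalytic beta subunit, differed least of those that passed. It stood at 982, 946, 1048, 1003 and 951 CPM against 1208, 1149.9, 1316, 1257 and 1300.4 CPM. The log2 difference was -0.34 ± 0.06 (adjusted p = 0.000822), and 0.054 under library totals. The small epsilon subunit Atp5e differed most, at 219, 186, 262, 240 and 233 CPM against 587, 642, 634, 710 and 631 CPM (-1.49 ± 0.09, adjusted p = 9.84e-07). Atp5md was at 363 ± 22.9 and 843 ± 52.6 CPM (-1.22 ± 0.06), and Atp5g2, a minor gene for the c subunit, did not pass (-0.38 ± 0.34).

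**Figure D2:**
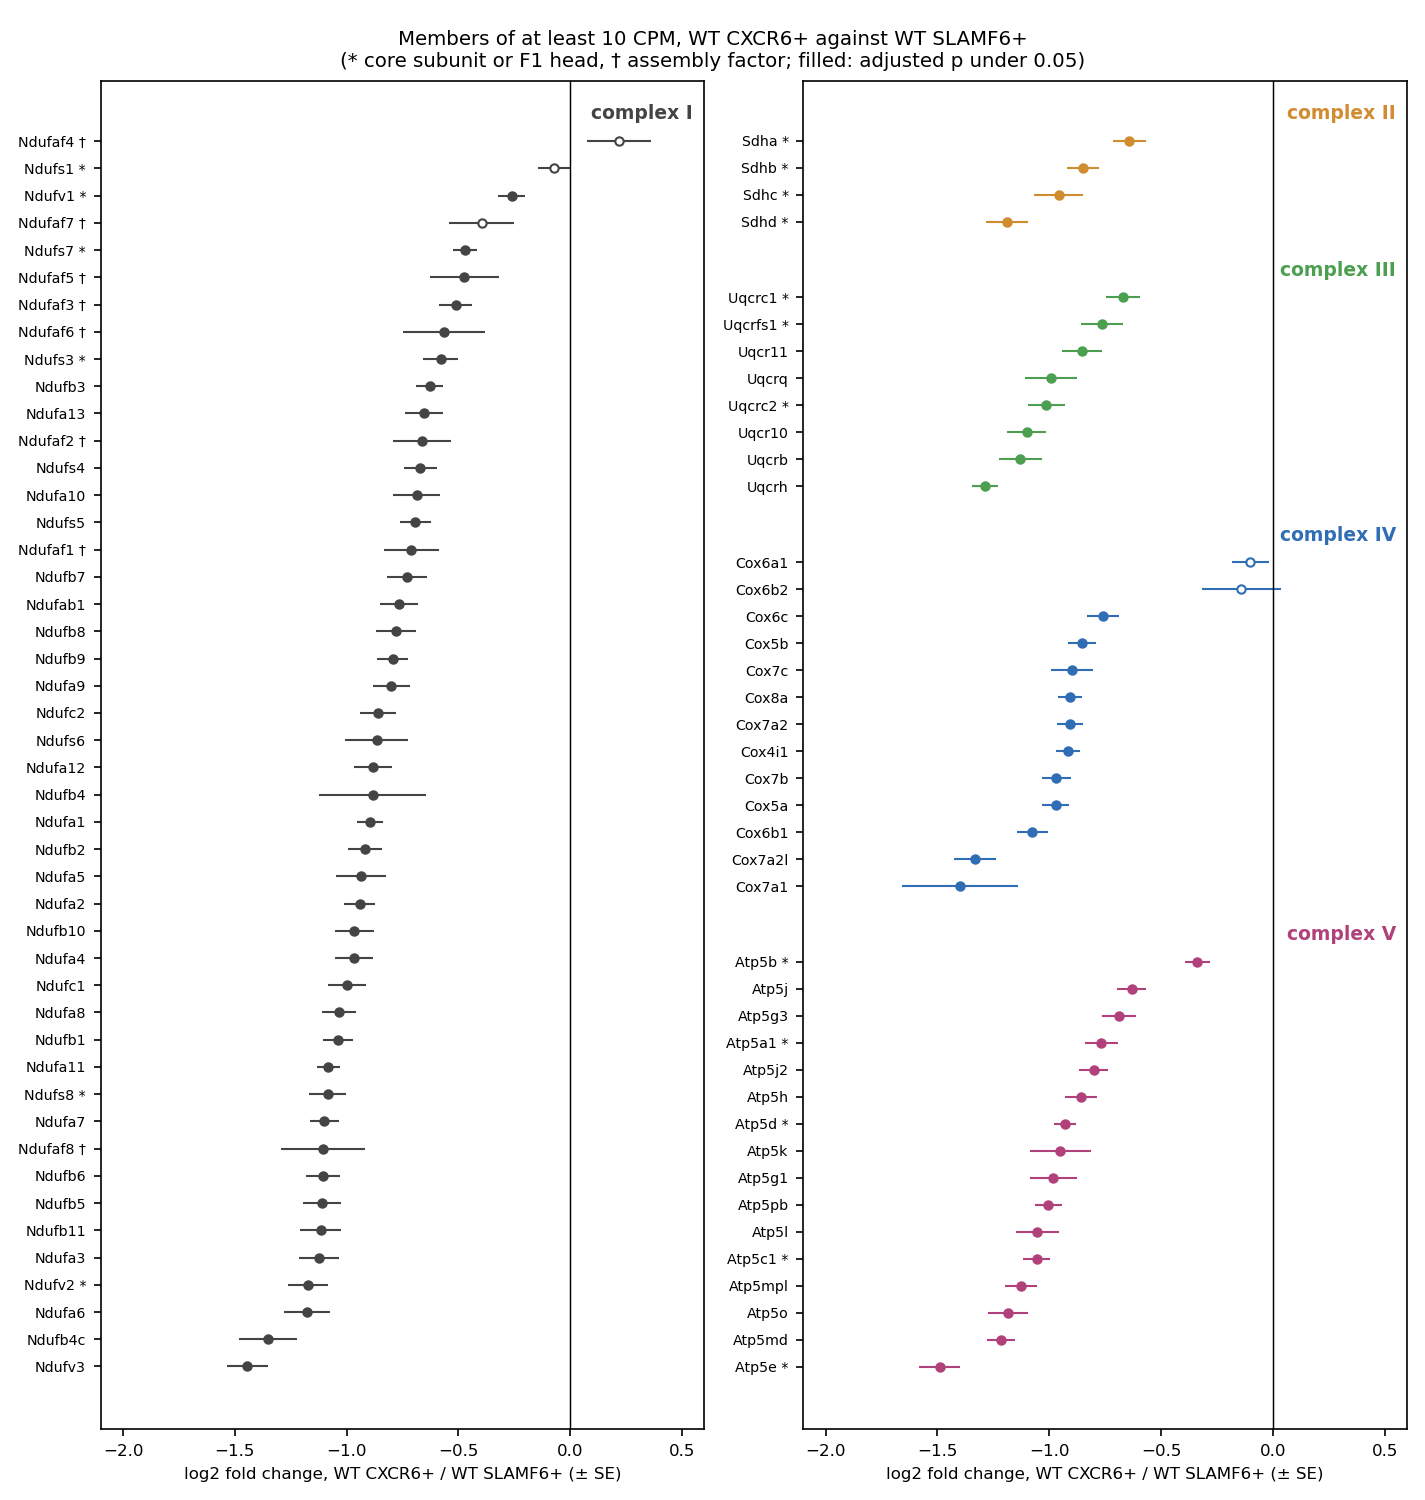
Log2 difference between WT CXCR6+ and WT SLAMF6+ cells, with its standard error, for genes of at least 10 CPM, by complex, 1 gene of complex I not drawn (x axis log2, y axis genes; filled points passed at an adjusted p under 0.05). Nearly all points lie left of 0; Ndufs1, Cox6a1 and Cox6b2 lie near it, and Ndufv3, Cox7a1 and Atp5e lie farthest to the left.

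Transcript length moved with this difference. The genes of the chain had a median transcript length of 863 nt, against 2650 nt for the other protein-coding genes compared. The log2 difference was nearer 0 or higher in longer transcripts, with a Spearman's rho of 0.38 over 86 chain genes and 0.45 over 6916 others, as a description over genes of the same libraries. In classes by length, the chain and other genes had medians of -1.11 and -0.92 under 500 nt, -0.91 and -0.93 from there to 700 nt, and -0.93 and -0.76 up to 1000 nt. From 1000 to 2000 nt the medians were -0.78 and -0.46, and at 2000 nt or more -0.77 and -0.08. Of the other genes, 84.9% were lower from 500 to 700 nt and 32.9% at 2000 nt or more. When GC content and length entered the fit as offsets, 67 of the 95 were lower and 0 higher with a median of -0.42, where 16.1% of all genes were lower and 13.9% higher. When only protein-coding genes of 300 to 1000 nt were fitted, a choice made after seeing the data, 19 of 55 were lower and 3 higher with a median of -0.15. The median of all 1102 genes of that fit was 0.13, with 14.1% lower and 14.6% higher. Its TMM factors were computed again from those genes, which shifts all of them by nearly the same amount.

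**Figure D3:**
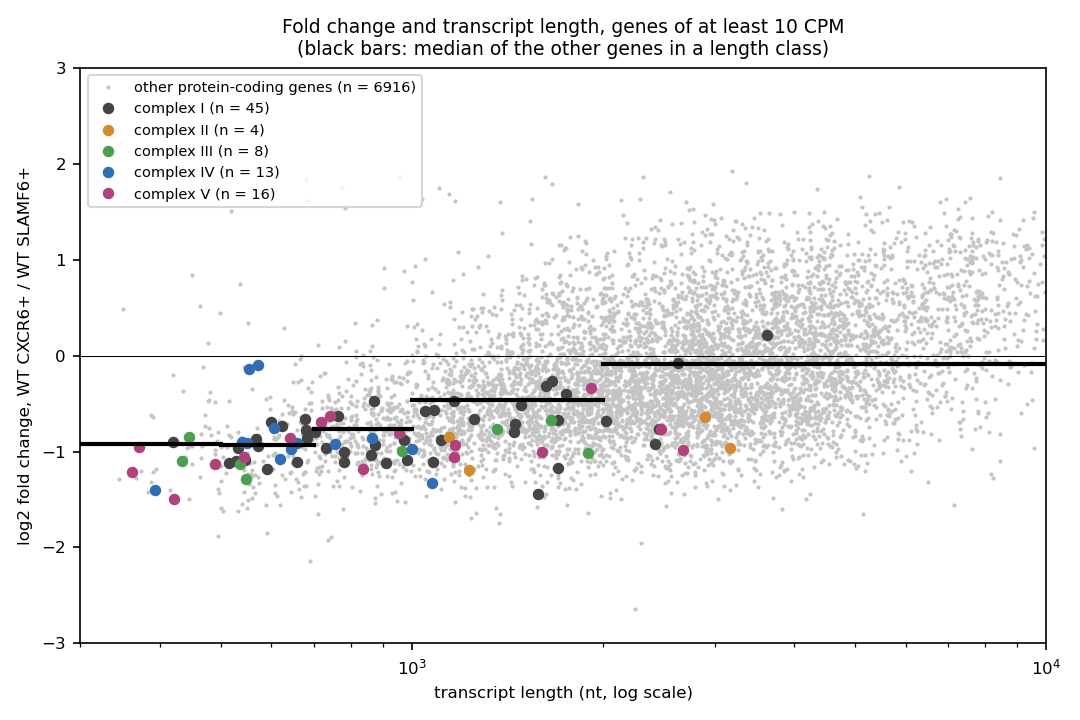
Log2 difference between WT CXCR6+ and WT SLAMF6+ cells (y axis) against transcript length in nt (x axis, log scale), for the 86 chain genes coloured by complex and 6916 other protein-coding genes in grey, all of at least 10 CPM; black bars are the medians of the other genes in a length class, and points outside the axes are not drawn. Below 700 nt the chain genes lie around the bars, and from 1000 nt upward most lie below them, with medians of -0.78 and -0.77.

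Other features of the libraries also moved with the subset. TMM scaling factors were 1.13 to 1.22 for the WT CXCR6+ libraries and 0.877 to 0.902 for the WT SLAMF6+ ones. With library totals in their place 73 of the 95 were lower and 3 higher, where 8.33% of all genes were lower and 26.2% higher; their median was -0.51 where that of all genes was 0.52. Relative to all genes the chain's median was -1.025 with TMM and -1.022 with library totals. A change of scaling shifts all genes of a comparison by nearly the same amount, so these values had to be close. This relative median was -0.67 when only genes of at least 10 CPM were fitted and -0.53 with GC and length offsets. Among genes of 300 to 1000 nt it was -0.28. Mitochondrially encoded genes took 12.9 to 17.6% of counts in WT CXCR6+ and 2.201 to 5.24% in WT SLAMF6+. Malat1, a nuclear RNA, took 0.888 to 1.18% and 0.187 to 0.257%, and Xist, also nuclear, had 1520 to 1846 and 447 to 559 counts. Of the marker lists, the 5 microglial genes, all detected in both subsets, summed to 19.1 to 41.5 CPM (WT CXCR6+) and 62.4 to 83.0 CPM (WT SLAMF6+). The 4 astrocyte genes summed to 45.7 to 67.6 and 127 to 143 CPM, with Gfap at 0 in WT SLAMF6+. In a fit without receptor, mitochondrial, ribosomal protein and haemoglobin genes, the chain's median was -0.91. The part of these transcripts and markers in the result was otherwise not tested. Counts of mt-Ts1, a mitochondrial tRNA, were 0 in 1 WT CXCR6+ and 4 WT SLAMF6+ libraries. The summed chain genes of those 5 stood at 15078 CPM (CXCR6+) and 27688 to 30482 CPM (SLAMF6+). In the other WT libraries they stood at 15145 to 16445 and 27165 CPM. In bulk libraries, less of a transcript per cell and fewer cells of a type that holds it cannot be told apart.

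Genes linked to the chain were described from lists compiled with earlier results known. Of the 13 mitochondrially encoded subunits, 12 were higher in WT CXCR6+ and 0 lower (median 1.63): mt-Co1, the catalytic subunit of complex IV, was at 10755 ± 1643 and 3465 ± 663 CPM, and mt-Nd4l did not pass. Of 91 cytosolic ribosomal protein genes, 84 were lower and 1 higher (median -1.25), and of 78 mitochondrial ribosomal protein genes 69 were lower and 0 higher (-0.67). Of 22 genes of the tricarboxylic acid cycle and pyruvate entry, 18 were lower (-0.65), among them citrate synthase, Cs (139 ± 6.95 and 248 ± 14.3 CPM). Of 42 assembly factors outside the symbol rule 25 were lower and 1 higher (-0.59), and of 22 carriers and exchangers 10 were lower and 2 higher (-0.40). Slc25a5, an ADP/ATP exchanger, was at 383 ± 39.9 and 868 ± 45.5 CPM, and Cycs, cytochrome c itself, did not pass (19.3 ± 3.02 and 23.8 ± 2.79 CPM). The 19 regulators of mitochondrial gene expression were divided, with 6 lower and 6 higher (-0.19). Nrf1 was lower (40.1 ± 6.37 and 53.4 ± 5.54 CPM), while Yy1 (9.17 ± 0.95 and 5.39 ± 0.82 CPM) and Esrra (14.0 ± 2.94 and 5.62 ± 1.06 CPM) were higher.

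In DKO CXCR6+ cells most of the chain was higher than in WT CXCR6+ cells. Of the 95 genes, 57 were higher and 8 lower in edgeR's test, where 12.8% of all genes were higher and 15.9% lower. The median was 0.57, against -0.22 over all genes. The fit takes the single DKO library to vary like the WT libraries. With GC and length offsets 33 were higher and 10 lower (median 0.24), where 12.4% and 16.2% of all genes were. Among genes of 300 to 1000 nt 20 of 55 were higher and 9 lower (median 0.17), where 17.6% and 22.1% of the 1102 genes were. Over all 101 genes, the DKO CXCR6+ value lay above the WT CXCR6+ range for 65 and below it for 14, as for 29.6% and 28.1% of all genes tested. By complex, 29 of 50 genes of I were higher, 1 of 4 of II (Sdhb), 5 of 8 of III, 9 of 16 of IV and 13 of 17 of V. Sdhb missed the threshold without any 1 of 7 WT libraries, all but CXCR6+ replicate 4 and SLAMF6+ replicates 2 and 4 (adjusted p 0.0625 to 0.0756), and by limma-voom (0.0537). Accessory subunits of complex I (23 of 32 higher, median 0.81) and ATP synthase subunits outside the F1 head (11 of 12, 0.79) had the largest medians, and the core of complex I (3 of 7, 0.03) and complex II (0.15) small ones.

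Atp5e and Atp5h had the largest differences of the higher genes after Cox6a2, which is described below. Atp5e was at 753 CPM in DKO CXCR6+ (1.72 ± 0.14 against WT CXCR6+, adjusted p = 4.73e-06), above all 10 WT libraries. Atp5h, a stator subunit, was at 207, 230, 262, 224 and 247 CPM in WT CXCR6+, and 402, 409, 407, 464 and 439 CPM in WT SLAMF6+. At 738 CPM (CXCR6+) and 741 CPM (SLAMF6+), both DKO libraries lay above every WT library (1.66 ± 0.11 and 0.81 ± 0.12 against the WT cells of the same subset). In complex I, Ndufb10 (218 CPM against 79.4 ± 9.37; 1.45 ± 0.14) and Ndufa1 (557 CPM against 217 ± 8.28; 1.36 ± 0.09), both membrane-arm subunits, had the smallest p. Uqcrh was at 608 CPM, within the WT SLAMF6+ range and 1.29 ± 0.09 above WT CXCR6+, and Cox7a2l at 314 CPM (1.16 ± 0.15).

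The 8 genes that were lower in DKO CXCR6+ were of several kinds. Atp5b was at 664 CPM, below all 10 WT libraries (-0.57 ± 0.10, adjusted p = 0.00152). Ndufc2 (77.7 CPM against 121 ± 14.9; -0.64 ± 0.15) is a subunit of complex I, and Ndufaf1 (12.02 CPM; -0.71 ± 0.23) and Ndufaf6 (6.01 CPM; -1.32 ± 0.35) were assembly factors. With 1 WT library left out, Ndufaf1 missed the threshold for 5 of 10 libraries, CXCR6+ replicates 1, 2 and 4 and SLAMF6+ replicates 1 and 4 (adjusted p 0.0547 to 0.0587). By limma-voom Ndufaf1 (adjusted p = 0.0764) and Ndufaf6 (adjusted p = 0.0527) missed it as well. The count of 8 was 5 without CXCR6+ replicate 2 or 4 or SLAMF6+ replicate 1 or 4. Cox4i2, Cox6b2 and Cox7a1, also among the 8, were isoform genes of complex IV and are described below.

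In DKO SLAMF6+ cells the chain was lower than in WT SLAMF6+ cells for a part of its genes. Of 95, 36 were lower and 5 higher, where 17.5% of all genes were lower and 13.5% higher. The median was -0.31 against -0.05 over all genes. Over the 101 genes the DKO value lay below the WT SLAMF6+ range for 59 and above it for 23, as for 30.9% and 35.1% of all genes tested. When only genes of at least 10 CPM were fitted, 23 of 88 were lower and 21 higher (median -0.04), where 27.4% and 30.4% of all genes fitted were. Among genes of 300 to 1000 nt 15 of 55 were lower and 16 higher (median 0.016), where 19.7% and 19.9% of the 1102 genes were. Each of these fits computed TMM factors again from the genes kept, which shifts all genes of the comparison by nearly the same amount. The balance of directions thus changed with the genes fitted and their scaling, and the part of each was not tested. By complex 15 of 50 genes of I were lower and 4 higher, 3 of 4 of II, 4 of 8 of III and 8 of 16 of IV were lower, and of V 6 were lower and 1 higher among 17. Of the 5 F1 head genes 4 were lower, all but Atp5e.

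After Cox7a1 and Cox6b2, described below, Sdhd had the largest difference of the lower genes against WT SLAMF6+, at 50.7 CPM (-1.51 ± 0.18, adjusted p = 9.91e-05), below every WT library of either subset. In DKO CXCR6+ it was at 63.4 CPM, within the WT CXCR6+ range. Ndufb6, a membrane-arm subunit of complex I, was at 95.7 CPM against 232 to 267 CPM in WT SLAMF6+ (-1.37 ± 0.14). Uqcrfs1 stood at 85.0 against 174 to 225 CPM (-1.26 ± 0.18) and Ndufab1, the mitochondrial acyl carrier protein, at 138 against 292 to 353 CPM (-1.20 ± 0.16). Atp5b was at 737 CPM, again below every WT library (-0.76 ± 0.10). The 5 higher genes were Ndufs8, at 186 CPM against 118 to 137 CPM (0.56 ± 0.13), Ndufa4 (0.50 ± 0.14), Ndufb7 (0.45 ± 0.15), the assembly factor Ndufaf4 (0.85 ± 0.23) and Atp5h. Ndufb7 (adjusted p = 0.0418) was at 0.0505 to 0.0703 without any 1 of 6 WT libraries, CXCR6+ replicates 3 and 5 and SLAMF6+ replicates 1, 3, 4 and 5. Ndufa4 is counted with complex I by its symbol, although its protein is known as a subunit of complex IV. Without WT CXCR6+ replicate 4 the higher genes numbered 8.

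**Figure D4:**
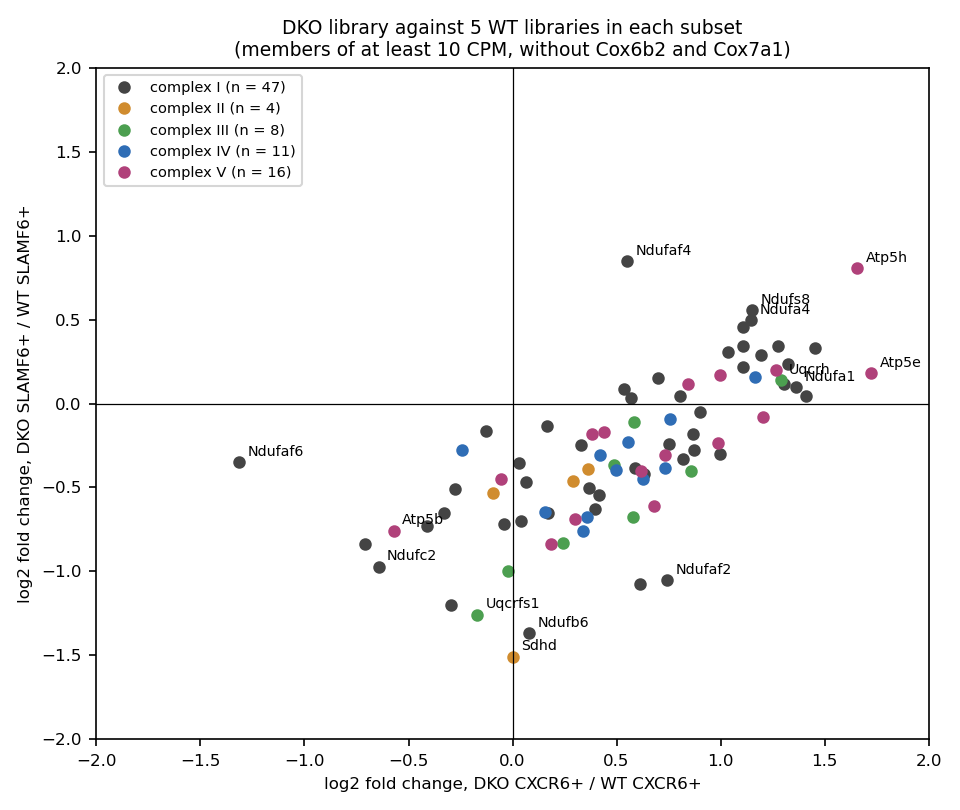
Log2 difference of DKO from WT in CXCR6+ cells (x axis) and in SLAMF6+ cells (y axis) for the 86 chain genes of at least 10 CPM other than Cox6b2 and Cox7a1, coloured by complex. Most points lie right of 0 and below 0, with Atp5h and Atp5e farthest right and Sdhd and Ndufb6 lowest; the 2 axes share no library.

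In the DKO pair the 2 subsets lay close together. In CPM, the sums (CXCR6+, then SLAMF6+) were 8270 and 8365 for complex I, 415 and 418 for II, 2356 and 2315 for III, 5584 and 5750 for IV, and 6834 and 6915 for V. Each sum lay between the WT groups' ranges. The median log2 ratio of the 95 genes in this pair was -0.03, with 5 genes at least 2-fold lower in CXCR6+ and 2 at least 2-fold higher, where 16.5% and 13.9% of all genes were; with 1 library each there is no test. In the test of the interaction, the CXCR6+ minus SLAMF6+ difference was higher in DKO than in WT for 58 of 95 genes and lower for 1, Cox6b2, where 6.36% and 3.94% of all genes were (median 0.86, against -0.10 over all genes). It was higher for 8 of 8 genes of complex III, 25 of 50 of I, 3 of 4 of II, 10 of 16 of IV and 12 of 17 of V. The smallest p belonged to Ndufa1 (1.26 ± 0.14, adjusted p = 0.00125), Atp5md (1.29 ± 0.15, adjusted p = 0.00158) and Ndufa11 (1.05 ± 0.13). The call of Cox6b2 was lost by limma-voom (adjusted p = 0.223). With GC and length offsets 28 were higher and 1 lower, where 4.81% and 3.24% of all genes were. Among genes of 300 to 1000 nt 4 of 55 were higher and 2 lower, where 3.09% and 4.9% of the 1102 genes were.

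The linked lists in the DKO comparisons can be read against the shares of all genes given above, 12.8% higher and 15.9% lower in CXCR6+ and 13.5% higher and 17.5% lower in SLAMF6+. Against WT CXCR6+, the DKO CXCR6+ library had 66 of 91 cytosolic ribosomal protein genes higher and 0 lower, 27 of 78 mitochondrial ribosomal ones higher and 8 lower, and 2 of 13 mitochondrially encoded subunits lower and 0 higher (median -0.58). Against WT SLAMF6+, the DKO SLAMF6+ library had 35 cytosolic ribosomal protein genes lower and 5 higher, 25 mitochondrial ribosomal ones lower and 5 higher, and 12 of 13 mitochondrially encoded subunits higher. The other assembly factors had 13 of 42 higher and 1 lower in CXCR6+, and 6 higher and 5 lower in SLAMF6+. The carriers and exchangers had 2 of 22 higher and 7 lower in CXCR6+ (median -0.49), and 0 higher and 10 lower in SLAMF6+ (-0.76). Of the tricarboxylic acid cycle genes 5 of 22 were higher and 6 lower in CXCR6+ (-0.19), and 1 higher and 9 lower in SLAMF6+ (-0.48). Of the 19 regulators 1 was higher and 3 lower in CXCR6+, and 5 higher and 4 lower in SLAMF6+. Atpif1, the inhibitor of the ATP synthase, was below every WT library in both, at 109 and 157 CPM, with 282 ± 18.4 in WT CXCR6+ and 526 ± 35.2 in WT SLAMF6+ (-1.37 and -1.75). In a fit without receptor, mitochondrial, ribosomal protein and haemoglobin genes, the chain's median was 0.58 in DKO CXCR6+ and -0.31 in DKO SLAMF6+. That fit kept the neutrophil and other erythroid transcripts, and their part in these comparisons was not tested.

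Several subunits of complex IV and the c subunit of the ATP synthase are encoded by isoform genes, usually a ubiquitous one and others known from muscle, testis or lung. Cox7a1, the form known from heart and muscle, was at 12.9, 22.8, 17.8, 11.7 and 31.6 CPM in WT CXCR6+ and 45.0, 40.9, 49.8, 63.1 and 56.7 CPM in WT SLAMF6+ (-1.40 ± 0.26). It had 6 counts in DKO CXCR6+ (0.694 CPM) and 0 in DKO SLAMF6+. Against WT SLAMF6+, with 2492 counts, the latter was at least 119-fold lower, with 3 counts taken as the floor over the group. DKO CXCR6+ differed from WT CXCR6+ by -4.77 ± 0.71 on the log2 scale (adjusted p = 0.00043; limma-voom gave 0.0836 and, in SLAMF6+, 0.0704). Every WT library thus held Cox7a1 transcripts, and the DKO libraries next to none.

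Cox6b2, the form known from testis, was at 27.6, 24.9, 35.0, 29.2 and 32.5 CPM in WT CXCR6+. In WT SLAMF6+ it was at 35.3, 38.3, 20.1, 30.8 and 40.1 CPM, and the values overlapped. Its log2 difference was -0.14 ± 0.18 (adjusted p = 0.568), and positive in the separately scaled fit of short genes only. It had 0 counts in DKO CXCR6+, at least 85.9-fold lower than WT CXCR6+ with its 1346 counts, and 35 counts (5.07 CPM) in DKO SLAMF6+ (-2.70 ± 0.39). As a share of the pair with its ubiquitous partner Cox6b1, per kilobase, it made up 8.84 ± 1.21% in WT CXCR6+ and 4.84 ± 1.23% in WT SLAMF6+. In the DKO libraries the share was 0% (CXCR6+) and 1.05% (SLAMF6+). Cox6b1 itself was at 345 ± 30.8, 727 ± 32.7, 532 and 533 CPM in the same order. Both Cox6b2 (ENSMUSG00000051811.14) and Cox7a1 (ENSMUSG00000074218.3) lie on chromosome 7, and of the promoters printed above theirs held 1 SP1 match and no match.

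Cox4i2, known from lung and from low oxygen, was at 1.09 ± 0.88 (WT CXCR6+) and 3.99 ± 1.57 CPM (WT SLAMF6+) (-1.86 ± 0.62, adjusted p = 0.0399). That p was 0.0542 to 0.0899 without any 1 of 7 WT libraries, all but CXCR6+ replicates 2 and 5 and SLAMF6+ replicate 2. The gene had 0 counts in DKO CXCR6+ (at least 3.19-fold lower) and 2 in DKO SLAMF6+. Its call in DKO CXCR6+ was lost without any 1 of 7 WT libraries, all but CXCR6+ replicates 1 and 3 and SLAMF6+ replicate 2 (adjusted p 0.0510 to 0.0550), and by limma-voom (0.324). Cox6a2, known from heart and muscle, was at 0 in all 5 WT CXCR6+ libraries and had 49 counts over the WT SLAMF6+ libraries, so it was at least 15.3-fold lower in WT CXCR6+. It had 5 counts in DKO CXCR6+ and 39 in DKO SLAMF6+ (5.65 CPM). Since it overlaps Itgad on the opposite strand and the libraries were not stranded, reads of the 2 genes cannot be told apart. In the COX7A family, Cox7a2l took 18.8 ± 1.98% per kilobase in WT CXCR6+, 23.0 ± 1.29% in WT SLAMF6+, and 30.9% and 39.2% in the DKO libraries. Cox7a2 was at 515 ± 36.8 (WT CXCR6+) and 965 ± 32.1 CPM per kb (WT SLAMF6+). In DKO CXCR6+ and DKO SLAMF6+ it was at 651 and 570 CPM per kb. Of the c subunit genes, Atp5g3 held 79.6 ± 1.09% and 77.2 ± 1.03% in the WT subsets and 78.0% and 79.4% in DKO. The 3-gene sum went from 366 ± 24.0 to 645 ± 64.5 CPM between the WT subsets.

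**Figure D5:**
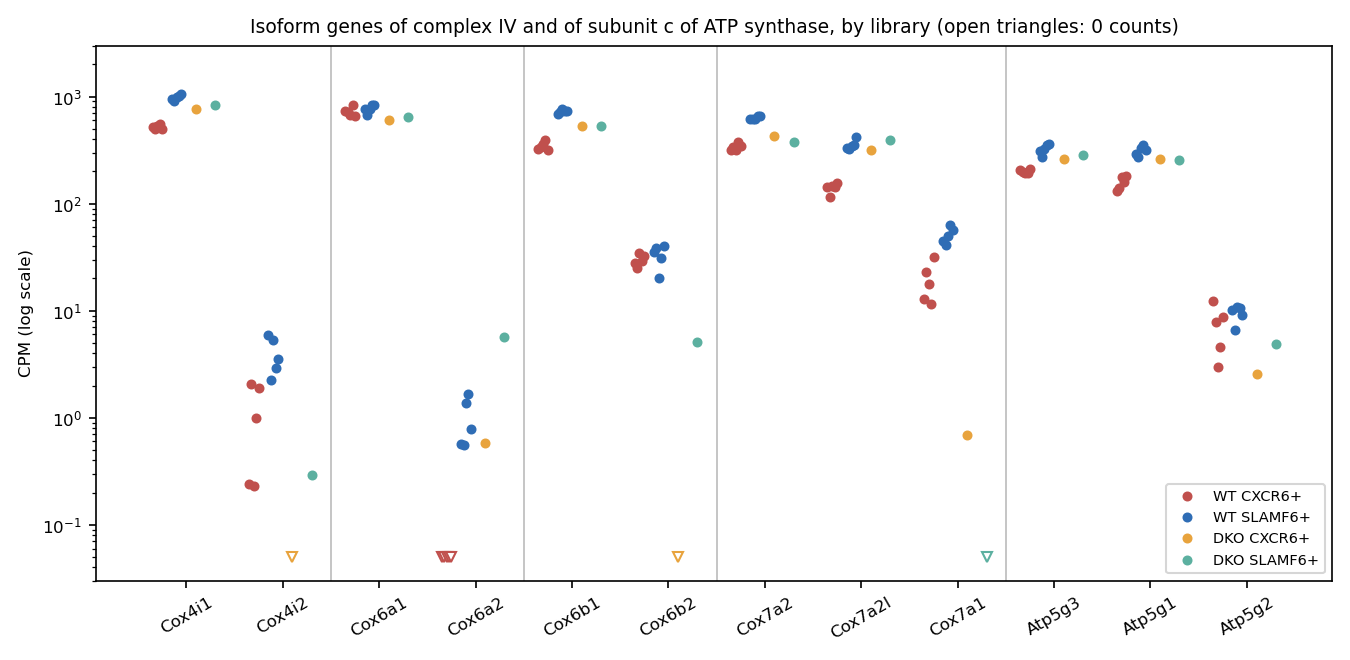
CPM on a log axis for isoform genes of complex IV and of the ATP synthase c subunit, 1 point per library in 4 groups, with open triangles for 0 counts. Cox7a1 and Cox6b2 drop in the DKO libraries to 5.07 CPM or less, while their partners Cox7a2 and Cox6b1 lie between 375 and 533 CPM there.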

How the data were processed

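RNA of 1000 sorted living cells per library was amplified by a modified SMART-Seq2 protocol, which does not keep strand, and read in pairs of 38 bases. Per the submitters' processing notes, STAR 2.7.7a, RSEM 1.3.3 and mm10 were used. The authors deposited a gene table of expected counts as whole numbers, so no rounding was needed; parameters of the alignment were not given in the sources used here. No libraries held identical values, and the 47359 rows all named genes.

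Counts were analysed with edgeR 4.0.16 (R 4.3.3, limma 3.58.1): TMM, filterByExpr by group (21565 genes kept), 1 quasi-likelihood fit of all 4 groups, Benjamini-Hochberg adjustment over all genes, threshold 0.05. For the DKO pair, log2 ratios used a prior count of 2. A fold against a group at 0 used a floor of 3 counts over the group; bounds cover counting error only. The script was tested on simulated data with known changes, placed in genes of at least 10 CPM. No other difference between the groups was simulated, and the rates do not cover genes of lower level. Of 2-fold changes it recovered 66% in the WT comparison, 20% in DKO CXCR6+, 27% in DKO SLAMF6+ and 0% in the interaction. For 4-fold changes these were 95%, 79%, 79% and 43%. Genes not called in the DKO comparisons or the interaction may therefore still differ. Members and lists were chosen with earlier results of these data known. Named were core subunits (1 gene is not reported here), isoform families, the 2 smallest p per complex, the largest fold changes, genes called against their complex and, for the interaction, the 3 smallest p.

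Positions and lengths came from GENCODE M21 (99 of 101 matched, not Ndufb11b or Ndufb4b). Promoters came from RefSeq without chromosome 18 (78 of 101), with the first of 2 listed starts for 5 genes. A gene on the opposite strand overlapped 34 members. Alternatives were DESeq2 1.42.0, limma-voom, other normalizations and filters, thinning, GC and length offsets, a replicate block, a term for mt-Ts1 and each WT library left out.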

Additional observations from a re-analysis of the deposited data

Results flagged for a closer look

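The values of 3 genes stood apart from the other 4 libraries of their group among 130 groups of gene or complex values examined, where chance alone gives about 1 in 20. Ndufa11b, an annotated pseudogene, was at 2.17 CPM in WT CXCR6+ replicate 1 and at 0 in the other WT CXCR6+ libraries. Ndufb4c was at 83.8 CPM in WT CXCR6+ replicate 4 and at 60.6 to 62.9 CPM in the others. Uqcrh was at 274 CPM in WT CXCR6+ replicate 1 and at 237 to 247 CPM in the others.

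The difference between the subsets was not the same in the DKO pair as in the WT libraries. By edgeR's test of the interaction, it was higher in DKO than in WT for 58 chain genes, where 6.36% of all genes were. The 3 with the smallest p were Ndufa1 (log2 1.26), Atp5md (log2 1.29) and Ndufa11 (log2 1.05). Each rests on 1 library per DKO group, and those libraries differed from WT in receptor segment, sex-linked transcripts and markers of other cells. Genotype cannot be told apart from these. The chain's median in the interaction was 0.86, and 0.59 with GC and length offsets. Among genes of 300 to 1000 nt it was 0.13. Cytosolic ribosomal protein genes had an interaction median of 1.05, and mitochondrial ribosomal ones of 0.67. In the class from 500 to 700 nt the chain's median was 0.99 and that of other genes 0.91. At 2000 nt or more these were 0.73 and 0.07.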

How the results depend on the processing

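The direction of the median was the same as reported in every comparison under every alternative run, except for DKO SLAMF6+ among protein-coding genes of 300 to 1000 nt (0.016). That fit and the one with library totals were chosen after seeing the data. Counts beyond 1.5 times the reported ones were, with 300 to 1000 nt only, 19 lower in WT, 20 higher in DKO CXCR6+, 15 lower in DKO SLAMF6+ and 4 higher in the interaction, all of 55 genes. With GC and length offsets they were 33 higher in DKO CXCR6+ and 28 higher in the interaction, and with genes of at least 10 CPM in 5 libraries 23 lower in DKO SLAMF6+; the cause was not tested. Library totals moved the complex sums (log2, WT) to -0.51 for I, -0.47 for II, -0.62 for III, -0.43 for IV and -0.48 for V (-0.99 without its most abundant gene, under the reported scaling), and the median of all genes from 0.13 to 0.52. Among the genes named here, Ndufs1 (0.32), Ndufv1 (0.13), Cox6a1 (0.29) and Atp5b (0.054) turned sign in WT with library totals. With at least 10 CPM, Ndufs1 (0.19), Ndufv1 (0.0023) and Cox6a1 (0.16) did so. With 300 to 1000 nt, Ndufs7 (0.32), Cox6a1 (0.69), Cox6b2 (0.64) and Atp5g3 (0.11) did so in WT, and Cox6a1 in the interaction (-0.74). In the reported fit their WT values were -0.47, -0.10, -0.14 and -0.69, so these genes moved up by a similar amount. Fits of fewer genes computed TMM factors again from the genes kept, so signs of single genes there also depend on that scaling. Over all called genes, the sign turned in WT for 4 of 85 with GC and length offsets and 9 with 300 to 1000 nt. In DKO CXCR6+ it turned for 8 of 65 in each of these settings, and in DKO SLAMF6+ for 0 of 41. In the interaction it turned for 5 of 59 with 300 to 1000 nt.

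Leaving out 1 WT library at a time gave 81 to 85 lower in WT, 50 to 57 higher in DKO CXCR6+, 32 to 38 lower in DKO SLAMF6+ and 48 to 61 higher in the interaction. The labels do not say whether numbers shared by WT libraries mark pairs. Over all genes tested, deviations of same-numbered libraries correlated at -0.012 to 0.029, and those of differently numbered ones at up to 0.0335. Of 10 libraries, 4 correlated best with their own number. Correlations this low, over genes of all levels, could not exclude pairing. With the number as a replicate block, 85 were lower in WT and 54 higher in the interaction; with the replicate block and GC and length offsets these were 65 and 11. Totals of 6818658 to 11635037 counts left 6 of the 101 genes below the filter.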
